A study of Chlamydomonas reinhardtii with 45 samples.

Results

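To see which transcripts still differed after a full day of osmotic stress, Chlamydomonas reinhardtii cells kept for 24 h in 300 mM mannitol were compared with untreated cells of the same age. The comparison rests on 7 of the 45 RNA-seq libraries of the study, 3 of mannitol 24 h (replicates 1, 2 and 3) and 4 of control 24 h (replicates 2, 3, 4 and 5), chosen by their labels. All 7 come from the wild-type strain CC-4533, grown in acetate-containing medium under continuous low light, and the only stated difference between them is the mannitol. Other groups used here for context are control 0 h (untreated, 5 libraries), mannitol at 15, 30 and 60 min and at 4 and 6 h, and 100 mM NaCl at 24 h (3 libraries each). The time course figure also shows 100 mM NaCl at 15, 30 and 60 min and at 4 and 6 h. According to the methods, the time points of an experiment were drawn from the same flask and replicates were made on different days.

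Mannitol is a sugar alcohol without charge that draws water out of cells, whereas NaCl adds an ionic stress to the osmotic one. Chlamydomonas is a freshwater alga that expels water through contractile vacuoles in ordinary medium and builds up glycerol as a compatible solute when the outside becomes concentrated. A culture also ages over a day, as cells divide and use up carbon and nutrients, which is why a control of the same age is needed beside the control taken at the start.

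Values are TPM, the share of a library that a transcript takes up once its length is corrected for. Of 19526 transcripts in the table, the 13651 with at least 1 TPM in at least 3 of the 45 libraries were tested with limma on log2(TPM + 1), and a call needed both a log2 fold change beyond 1 and an adjusted p below 0.01. Each of the 7 libraries had between 14019 and 14998 transcripts above 0, and the 9 pairs within a group had correlations between 0.94 and 0.985 across transcripts, none of them identical. The number of reads is unknown, so the error given is the spread between replicates. Mannitol replicate 3 and control replicate 5, the libraries numbered 49 or higher, stood apart from the other 5: their deviations from their own group means correlated at 0.706 across transcripts, and those of control replicate 5 correlated with those of mannitol replicates 1 and 2 at -0.56 and -0.501. One transcript, g15293, took 32.5%, 51.0% and 26.7% of the TPM in the mannitol libraries and between 22.3% and 31.2% in the control libraries. The highest share was that of mannitol replicate 2.

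After 24 h of mannitol, 147 of the 13651 transcripts (1.08%) were called, from 147 genes. Of these, 124 were higher than in control 24 h (0.908%) and 23 were lower (0.168%). Beyond a log2 fold change of 2 lay 71 (0.52%), 62 higher (0.454%) and 9 lower (0.0659%). An unadjusted p under 0.05 was found for 2405 transcripts. In all 147 the 3 mannitol libraries lay beyond the 4 control libraries, which was so for 11% of all tested transcripts in the upward and 5.48% in the downward direction. The same libraries made the calls, so this separation largely follows from them and is no separate support. Over all transcripts tested the median change was 0.08 on the log2 scale. With median-ratio scaling, which sets the typical transcript equal between libraries, the call held for 113 of the 147, 91 higher and 22 lower. All calls under that scaling, new ones included, split into 102 higher and 41 lower.

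**Figure D1:**
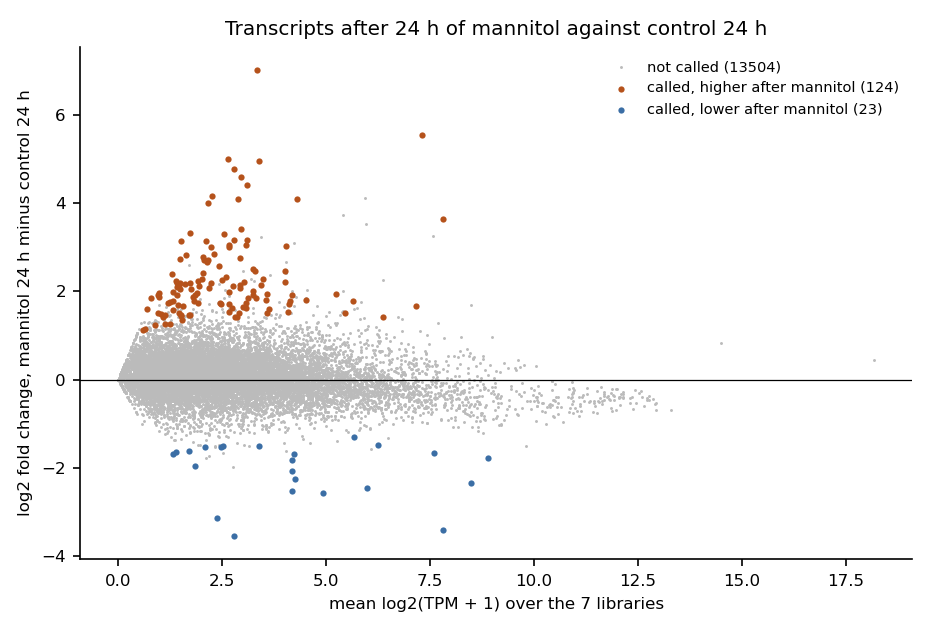
Log2 fold change (mannitol 24 h minus control 24 h, log2(TPM + 1) scale) of the 13651 tested transcripts against their mean log2(TPM + 1) over the 7 libraries. The 124 called transcripts above 0 reach a log2 fold change of 7.02, while the 23 below 0 reach -3.55.

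The count moved strongly with the libraries used. Fitting the library numbers (under 49, or 49 and higher) as a block gave 648 calls, 482 higher and 166 lower, with all 147 among them, and the 5 lower-numbered libraries alone gave 808, again with all 147. Leaving out control replicate 5 gave 335 calls. Without mannitol replicate 1 only 33 were called, without mannitol replicate 2, 55, and without control replicates 2, 3 or 4, between 66 and 71. Over all 7 such omissions 29 transcripts, 26 higher and 3 lower, kept their call every time. When g15293 and its neighbour by number g15294 were removed before the TPM were rescaled, 329 transcripts were called, 312 of them higher.

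Most of the raised transcripts were scarce in the aged control. In control 24 h the 124 had a median of 1.19 TPM, and 49 of them were under 1 TPM, against a median of 12.3 TPM after mannitol. After mannitol 7 of them reached 100 TPM or more. The filter on low values could be met by the 3 mannitol libraries alone, and a call asks for controls well below them. Low control levels therefore partly follow from how these members were chosen. The 23 lowered transcripts had a median of 30.9 TPM in the control and 6.92 TPM after mannitol, and 6 were under 1 TPM after mannitol. TPM is a share of the library, and with median-ratio scaling 22 of the 23 kept their call (Cre12.g546550 at -3.51 and Cre12.g546500 at -2.56 on the log2 scale).

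The transcripts are given by their identifiers, since neither the table nor the gene table at hand pairs them with names. The largest increase was that of Cre03.g162800. Its level was 123, 142 and 238 TPM in the mannitol libraries and 0, 0, 0.732 and 0.406 TPM in the control libraries. The log2 fold change was 7.02 ± 0.31 (SE, adjusted p = 3.92e-07), with 2 of the 4 control libraries listed at 0. In control 0 h the transcript had stood at 43.1 ± 9.32 TPM (SD, n = 5) and at 4 and 6 h of mannitol at 660 ± 152 and 614 ± 83.2 TPM (SD, n = 3). It was thus present in untreated cells at the start and under 1 TPM in untreated cells a day later, while the mannitol libraries stood above the start (log2 fold change 1.90 ± 0.31 against control 0 h, adjusted p = 5.65e-04).

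Cre04.g223100 was the most abundant of the raised transcripts. The mannitol libraries had 1309, 960 and 2350 TPM, and the control libraries 13.1, 25.7, 19.0 and 113 TPM. The log2 fold change was 5.56 ± 0.63 (adjusted p = 0.00161), with control replicate 5 well above the other controls. In control 0 h its mean was 1353 TPM, and compared with that group the mannitol libraries differed by a log2 fold change of only 0.13 ± 0.32. Between 0 and 24 h the untreated libraries themselves fell by 5.42 on the log2 scale (± 0.51, adjusted p = 1.41e-04).

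Cre02.g097800 and g9922 had a like course, with log2 fold changes of -2.71 and -3.95 between the untreated libraries of 24 h and 0 h, both called. Cre02.g097800 was at 993, 773 and 1119 TPM after mannitol and at 45, 59.3, 57.2 and 205 TPM in the control, a log2 fold change of 3.65 ± 0.44 (adjusted p = 0.00123). For g9922 the mannitol libraries had 29.4, 27.2 and 59.2 TPM and the controls 0.703, 0.819, 0.279 and 4.64 TPM. Against control 0 h, at 504 and 36.1 TPM, neither was called, with log2 fold changes of 0.94 ± 0.28 and 0.15 ± 0.38. In both, control replicate 5 was the highest control library.

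**Figure D2:**
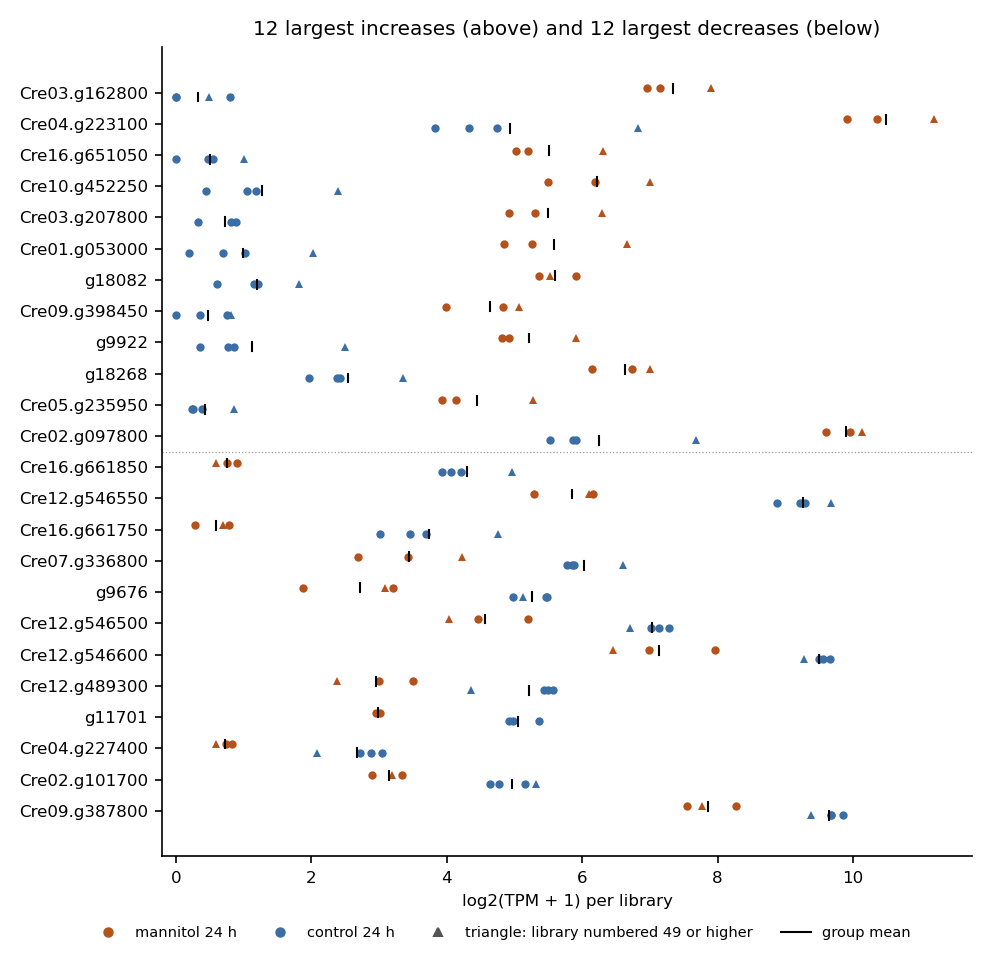
Log2(TPM + 1) in each of the 7 libraries for the 12 largest increases and the 12 largest decreases among the called transcripts. Points are libraries, triangles are mannitol replicate 3 and control replicate 5, and bars are group means. Mannitol replicate 3 is the highest mannitol library for 11 of the 12 increases and control replicate 5 the highest control library for 10 of them. The groups do not overlap for any transcript, which was a condition of their choice.

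Another set of raised transcripts was above both controls. Cre03.g207800 had 29.4, 38.3 and 77.1 TPM after mannitol against 0.254, 0.844, 0.753 and 0.836 TPM in control 24 h (log2 fold change 4.78 ± 0.33, adjusted p = 2.35e-05). Its control 0 h mean was 7.68 TPM, and it had been called higher already at 60 min (76 TPM), 4 h (103 TPM) and 6 h (144 TPM). The increase was seen at each sampling from 60 min on.

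Cre01.g053000 was called higher at every time from 30 min on. It reached 1963 ± 715 TPM at 60 min (SD, n = 3) and was at 37.3, 27.8 and 101 TPM at 24 h, with control 24 h libraries between 0.148 and 3.09 TPM. The effect at 24 h was smaller than the one at 60 min by 3.70 on the log2 scale (difference -3.70 ± 0.61, adjusted p = 3.52e-04). Cre05.g235950 (16.6, 14.2 and 37.7 TPM against 0.184 to 0.816 TPM) held a similar level from 60 min to 24 h, with group means between 16.8 and 33.3 TPM. Cre16.g651050 (31.6, 35.8 and 77.9 TPM against 0 to 1.01 TPM) was not called at 60 min and was called at 4 h (11.9 TPM), 6 h (23.5 TPM) and 24 h (48.4 TPM).

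A different course was a low level at 4 and 6 h followed by a high level at 24 h. Of the 124 raised transcripts, 6 were called lower than control 0 h at 4 or 6 h of mannitol: Cre10.g452250, g18082, g18268, Cre14.g613800, Cre09.g398250 and Cre10.g458850. Their log2 fold changes at 4 h lay between -5.01 and -1.46, and at 24 h against control 24 h between 2.47 and 4.95. These 6 were picked out after their values were seen, and the course is a description.

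Within this set, g18268 was listed at 0 in all 3 libraries at 4 h of mannitol and was at 106, 69.7 and 128 TPM at 24 h. Control 24 h had 4.22, 2.93, 4.36 and 9.28 TPM and control 0 h a mean of 32.0 TPM. The 24 h level was higher than either control (log2 fold change 4.10 ± 0.34 against control 24 h and 1.62 ± 0.31 against control 0 h, adjusted p = 4.99e-05 and 0.00312). For g18082 the mannitol libraries had 59.3, 40.3 and 45.1 TPM at 24 h, against 0.528, 1.32, 1.22 and 2.52 TPM in control 24 h and a mean of 7.22 TPM in control 0 h. Cre10.g452250 went from 42.5 TPM in control 0 h to 1.07 TPM at 4 h and to 71.8, 44.0 and 127 TPM at 24 h, with 1.08, 0.359, 1.28 and 4.27 TPM in control 24 h. Its level at 24 h of mannitol did not pass the test against control 0 h (log2 fold change 0.82 ± 0.33, adjusted p = 0.205). Cre09.g398450 had a related course, 27.6, 14.9 and 32.7 TPM at 24 h against at most 0.754 TPM in control 24 h, but its low mean at 4 h (0.216 TPM, from 1.67 TPM in control 0 h) was not called.

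**Figure D3:**
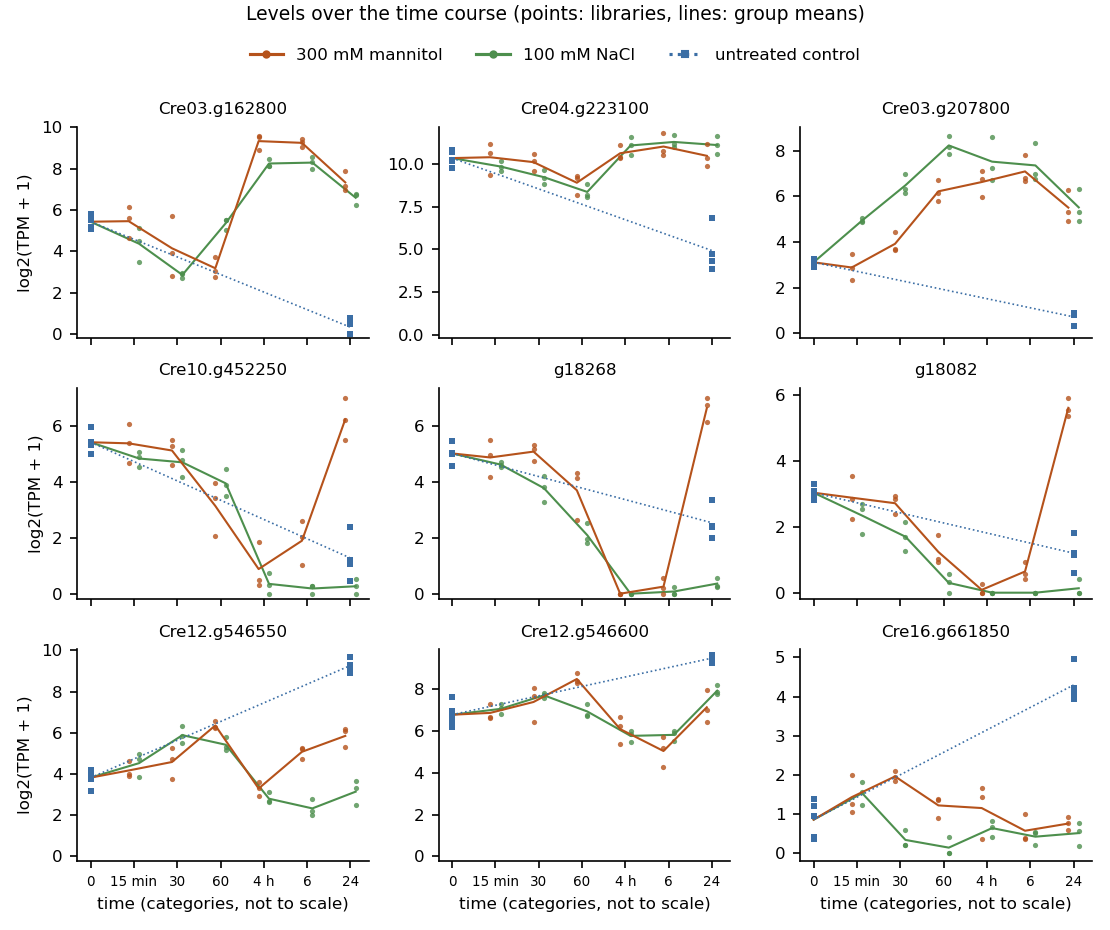
Log2(TPM + 1) of 9 of the named transcripts at each time of mannitol and NaCl and in both controls. Points are libraries, solid lines join group means and the dotted line joins the means of control 0 h and control 24 h. The middle row shows transcripts with means of at most 1.07 TPM at 4 h of mannitol that are highest at 24 h of mannitol, while NaCl 24 h is at most 0.292 TPM, and the bottom row the transcripts that are highest in control 24 h.

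Most of the largest decreases ran the opposite way to Cre04.g223100: low at the start, high in the aged control and low after mannitol. Cre16.g661850 had 0.877, 0.682 and 0.501 TPM after mannitol and 15.8, 14.2, 17.5 and 30.3 TPM in control 24 h, a log2 fold change of -3.55 ± 0.29 (adjusted p = 4.99e-05). Control 0 h was at 0.875 ± 0.589 TPM (SD, n = 5), next to the mannitol level. Cre16.g661750 followed it, with 0.730, 0.213 and 0.625 TPM after mannitol against 10, 7.11, 12 and 25.9 TPM.

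The most abundant transcripts of this kind were Cre12.g546550 and Cre12.g546600. Cre12.g546550 had 70.8, 38.2 and 67.3 TPM after mannitol and 594, 470, 626 and 820 TPM in control 24 h (log2 fold change -3.42 ± 0.29, adjusted p = 4.99e-05). In control 0 h its mean was 13.6 TPM, so the mannitol libraries were above the start (log2 fold change 2.03 ± 0.32, adjusted p = 4.53e-04) and far below the aged control. Of the 147, it was the only one called in opposite directions against the 24 h and the 0 h control.

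Cre12.g546600 had 250, 126 and 86.8 TPM after mannitol against 752, 723, 807 and 617 TPM, and Cre12.g546500 had 35.9, 21.1 and 15.4 TPM against 139, 128, 155 and 104 TPM. Their log2 fold changes were -2.36 ± 0.33 and -2.46 ± 0.29. At 60 min of mannitol all 3 Cre12 transcripts had instead been called higher than control 0 h, by log2 fold changes of 1.71 to 2.53. The difference between the effects at 24 h and 60 min was -5.95 ± 0.40 for Cre12.g546550, -4.41 ± 0.51 for Cre12.g546500 and -4.07 ± 0.45 for Cre12.g546600, each past the test. Cre07.g336800 (9.72, 5.46 and 17.7 TPM against 53.6 to 96.4 TPM) and Cre04.g227400 (0.508 to 0.778 TPM against 3.24 to 7.29 TPM) shared this course.

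A smaller group of decreases was below both controls. Cre02.g101700 was at 9.11, 6.47 and 8.15 TPM after mannitol and at 26.2, 34.6, 24.0 and 39.0 TPM in control 24 h, with 25.4 TPM in control 0 h. It had been lower already at 60 min (1.58 TPM), so its level at 24 h was a partial return, 1.81 higher on the log2 scale than at 60 min. For g11701 the mannitol libraries were close together (6.77, 7.06 and 6.92 TPM) and the controls had 29.2, 30.6, 40.3 and 29.8 TPM. For g9676 they had 8.27, 2.66 and 7.50 TPM against 30.7 to 43.7 TPM. Against control 0 h all 3 were called lower as well, with log2 fold changes of -1.56, -1.68 and -2.43. The remaining decreases named by the rule, Cre12.g489300 (log2 fold change -2.25 ± 0.35) and Cre09.g387800 (-1.79 ± 0.25, from 807 to 237 TPM), were not called against control 0 h.

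Of the 24 transcripts named so far by size, 11 kept their call whichever of the 7 libraries was left out: Cre03.g162800, Cre16.g651050, Cre10.g452250, Cre03.g207800, g18082, Cre09.g398450, g18268, Cre05.g235950, Cre16.g661850, Cre12.g546550 and g11701. The other 13 lost it under at least 1 omission, each with its direction kept.

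How much of the contrast depended on the age of the control was seen by using control 0 h in its place. Of the 124 raised transcripts, 47 were also called higher against control 0 h and 0 were called lower, and 115 had a fold change above 0 (limma, median 1.18). Of the 23 lowered ones, 9 were called lower and 1 higher. Both comparisons use the same mannitol libraries, which also chose these members, so they are not independent. No share over all tested transcripts stands beside these counts, so they only describe the members. The control libraries alone, 24 h against 0 h, gave 254 calls of 13651 (1.86%), 18 higher (0.132%) and 236 lower (1.73%) at 24 h, with a median over all transcripts of -0.30. Median-ratio scaling removed that shift and left 121 calls, 23 higher and 98 lower. With the replicate number as a block 506 were called, 32 of them higher. Deviations of same-numbered libraries correlated at 0.137 to 0.699, and those of differently numbered ones at up to 0.317.

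Earlier mannitol times share no library with the contrast at 24 h. According to the methods, though, time points came from the same flask, so the counts are not independent of that contrast. At 60 min 5122 transcripts (37.5%) were called against control 0 h, 1338 higher (9.8%) and 3784 lower (27.7%). The median over all transcripts there was -0.55, and median-ratio scaling turned the split to 2391 higher and 1310 lower of 3701, so directions at 60 min are relative to that shift. Of the 124 raised at 24 h, 56 were among the higher and 15 among the lower at 60 min. At 4 h, where 373 transcripts (2.73%) were called, 35 of the 124 were higher and 6 lower, against 0.762% and 1.97% of all tested. At 6 h, with 252 calls (1.85%), 35 were higher and 5 lower, against 0.542% and 1.3%. In all, 40 of the 124 were higher at 4 or 6 h, 6 were lower and 78 were called at neither. At 30 min, with 123 calls (0.901%; 0.711% higher and 0.19% lower), 4 of the 124 were higher. At 15 min, with 11 calls (0.0806%; 0.0659% higher and 0.0147% lower), 0 of the 124 were called.

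Of the 23 lowered transcripts, 10 were called lower and 6 higher at 60 min. At 4 h and at 6 h 9 were lower and none was higher (limma), against 1.97% and 1.3% of all tested transcripts called lower. The mannitol effect itself, each time against its own control, differed between 60 min and 24 h for 1967 transcripts (14.4%), 1476 more positive at 24 h (10.8%) and 491 more negative (3.6%). With the replicate number as a block 2773 differed, 2083 more positive and 690 more negative, and no call among the 27 named transcripts changed. With median-ratio scaling the 2103 calls split into 574 and 1529, so this balance turned with the scaling. The mannitol libraries alone, 24 h against 60 min, gave 3090 calls (22.6%), 1780 higher (13%) and 1310 lower (9.6%) at 24 h, and 3456 with the replicate number as a block, 2034 higher and 1422 lower. Without the block, median-ratio scaling gave 727 higher and 1753 lower.

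Mannitol and NaCl were compared directly at 24 h to see which of these levels depended on the osmolyte. Of 13651 transcripts, 838 (6.14%) were called, 469 higher (3.44%) and 369 lower (2.7%) after mannitol. Among the 124 raised transcripts, 44 were called higher and 24 lower after mannitol than after NaCl, and among the 23 lowered ones, 3 higher and 2 lower. These counts share the mannitol libraries that chose the members. Same-numbered libraries of these groups deviated together (0.356 to 0.598), and with the replicate number as a block 1394 were called, 826 higher and 568 lower. The block changed no call among the 27 transcripts named here. With median-ratio scaling the 722 calls split into 276 higher and 446 lower, so the majority changed sides with the scaling. The doses, 300 mM mannitol and 100 mM NaCl, differ.

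The 6 transcripts that were low at 4 or 6 h and high at 24 h were each called higher after mannitol than after NaCl, by log2 fold changes of 2.62 to 6.27. For g18268 NaCl 24 h was at 0.292 ± 0.166 TPM, against 101 ± 29.4 TPM after mannitol (SD, n = 3, difference 6.27 ± 0.36, adjusted p = 2.71e-16). For g18082 it was at 0.108 TPM and for Cre10.g452250 at 0.216 TPM, with differences of 5.47 ± 0.36 and 5.96 ± 0.38. Cre09.g398450 likewise was at 0.224 TPM after NaCl and 25.1 TPM after mannitol.

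NaCl against the same control 24 h libraries gave 1645 calls (12.1%), 830 higher (6.08%) and 815 lower (5.97%). Since this contrast and that of mannitol share the control libraries, their log2 fold changes are given only side by side. They were 7.02 for mannitol and 6.27 for NaCl in Cre03.g162800, 4.78 and 4.79 in Cre03.g207800, -3.55 and -3.79 in Cre16.g661850, and -1.79 and -1.79 in Cre09.g387800, but 4.95 and -1.01 in Cre10.g452250, 4.01 and 7.76 in Cre05.g235950, and -3.42 and -6.12 in Cre12.g546550. These 7 were picked after their values were seen. Among the other large increases the direct differences went both ways. Cre05.g235950 and Cre01.g053000 were lower after mannitol than after NaCl, at 22.8 against 295 TPM (-3.75 ± 0.37) and 55.3 against 281 TPM (-2.48 ± 0.42). Cre16.g651050 was higher after mannitol, 48.4 against 6.25 TPM (2.68 ± 0.37), as was Cre02.g097800, 962 against 382 TPM (1.32 ± 0.35, adjusted p = 0.00856). Cre03.g162800 (168 and 97.1 TPM), Cre04.g223100 (1539 and 2316 TPM), Cre03.g207800 (48.3 and 48.7 TPM) and g9922 (38.6 and 55.3 TPM) did not pass the test, with differences of 0.74 ± 0.36, -0.63 ± 0.38, -0.01 ± 0.40 and -0.56 ± 0.36. A missed threshold does not show that these levels are alike.

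**Figure D4:**
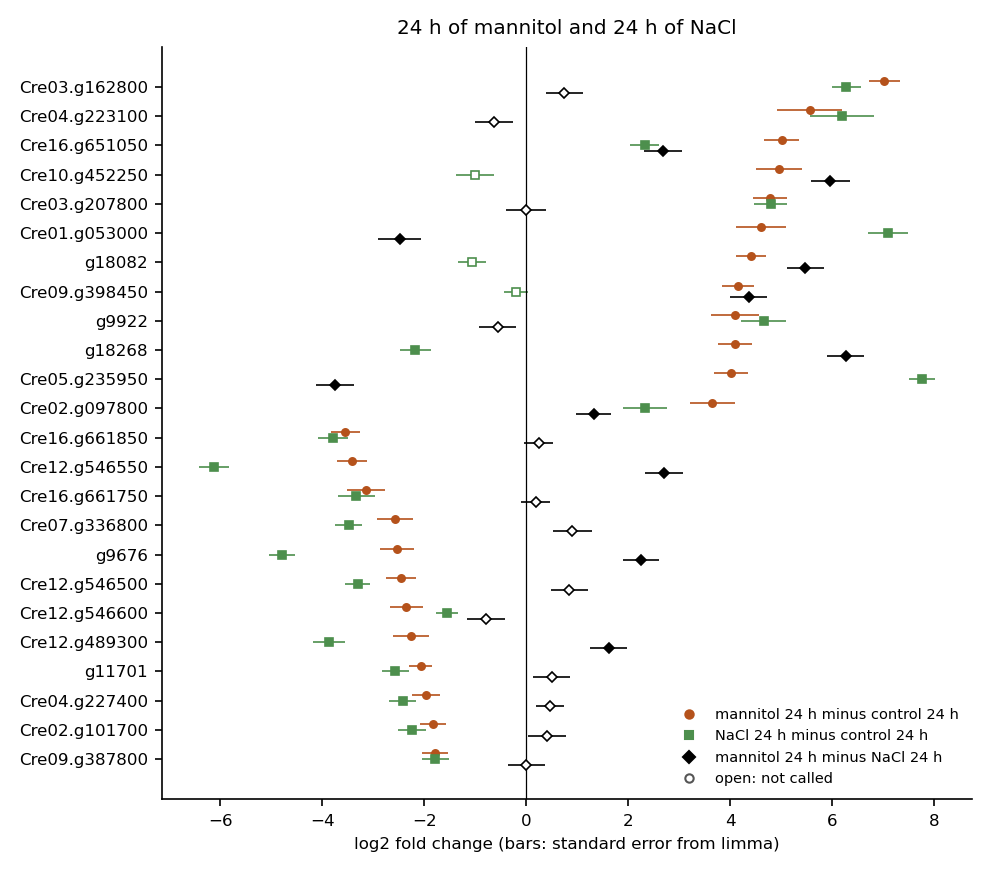
Log2 fold changes with their standard errors for the 24 transcripts with the largest changes: mannitol 24 h and NaCl 24 h, each against the same control 24 h libraries, and mannitol 24 h against NaCl 24 h. Filled symbols are called and open symbols are not. Cre10.g452250, g18082, Cre09.g398450 and g18268 lie above 4 for mannitol and below 0 for NaCl. Their NaCl 24 h means are at most 0.292 TPM, near the floor. For Cre09.g398450 control 24 h is near it too, at 0.431 TPM.

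Among the decreases, Cre12.g546550 was at 58.8 TPM after mannitol and 8.34 TPM after NaCl (2.71 ± 0.37, adjusted p = 7.15e-07). g9676 (6.14 against 0.394 TPM) and Cre12.g489300 (7.18 against 1.56 TPM) were also higher after mannitol than after NaCl. The other 9 did not pass the test, with differences from -0.80 for Cre12.g546600 to 0.91 for Cre07.g336800.

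Several called genes lay close together. In the order of the RefSeq gene table of assembly v5.5, which holds 109 of the 111 called genes with Cre identifiers, 5 pairs of called genes were direct neighbours, and both genes of each pair changed the same way. Cre12.g546500, Cre12.g546550 and Cre12.g546600 form a run of 3 lowered genes. Raised neighbours were Cre09.g398400 with Cre09.g398450 (3.32 and 4.15), Cre12.g492600 with Cre12.g492650 (2.15 and 2.29) and Cre02.g084400 with Cre02.g084450 (1.99 and 1.74, all log2 fold changes). With up to 2 other genes between them, 3 more pairs were found, again each in 1 direction: Cre16.g661750 with Cre16.g661850, Cre16.g685000 with Cre16.g685100, and Cre09.g398250 with Cre09.g398400. The table holds 7018 pairs of direct neighbours with both genes tested. Of the 147 called transcripts 124 were higher, so many pairs of called genes would share a direction wherever they lay. Whether these pairs are more than chance gives was not tested. In that table none of the 8 pairs overlap, although whether reads that fit both members of a pair could have been shared is not known.

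The study's annotated lists held 3 called genes. Of the 581 genes whose proteins had changed phosphorylation after osmotic stress, 420 were tested, with 421 transcripts. Among these 421, 3 were called (0.713%), all higher, against 1.08% of all tested. With the library numbers as a block 11 were higher and 10 lower (4.99%), against 4.75% of all tested, so the share was near that of all transcripts in either fit. Their median log2 fold change was 0.06, against 0.08 for all. Cre03.g175600, annotated as related to the mitogen-activated protein kinase kinase kinases that start kinase cascades, had 5.13, 3.48 and 4.47 TPM after mannitol and 0.729, 0.480, 0.481 and 0.935 TPM in the control (log2 fold change 1.69 ± 0.24, adjusted p = 0.00244). Cre01.g054800, annotated as paladin, a protein with phosphatase-like domains, had 14.5, 11.2 and 9.60 TPM against 4.18, 3.72, 3.58 and 3.45 TPM (1.42 ± 0.24, adjusted p = 0.00835). Cre16.g655050, without a description, had 25.1, 18.5 and 25.7 TPM against 4.95, 3.68, 5.42 and 11.0 TPM (1.81 ± 0.32, adjusted p = 0.00993) and lost its call with median-ratio scaling. None of these 3 was called against control 0 h.

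The other lists are short. They hold only genes from the study's phosphoprotein and mutant screen sheets or named in its text. Lists by function were sorted from these genes by words in their names and descriptions, so each covers only part of its class. With 1.08% of all tested transcripts called and 17.6% at an unadjusted p under 0.05, a list of this length with none called does not stand apart by that count. Of the 76 genes of the study's mutant screen only 47 were tested, with 48 transcripts. None of these 48 was called by limma, with 5 at an unadjusted p under 0.05 (10.4%) and a median of 0.01. SBE (Cre10.g444700), a starch branching enzyme, which adds branches to the starch chains, was at 113 ± 19.3 TPM after mannitol (SD, n = 3) and 57.3 ± 7.33 TPM in the control (n = 4). The groups did not overlap, and the log2 fold change of 0.97 ± 0.23 had an adjusted p of 0.0448. Cre08.g385350, annotated as an AP2-like transcription factor, was at 5.16 ± 3.5 and 0.505 ± 0.432 TPM (1.92 ± 0.38, adjusted p = 0.0187), with groups that did not overlap, and passed with the library numbers as a block.

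The 18 chloroplast and photosynthesis transcripts included none that was called (limma, 4 or 22.2% at an unadjusted p under 0.05, against 17.6% of all), and their median was -0.23. Plastid ribosomal proteins gave the largest differences, 199 ± 44.7 against 353 ± 23.8 TPM for PSRP3 and 218 ± 52.1 against 437 ± 126 TPM for PRPL32 (log2 fold changes -0.85 ± 0.24 and -0.97 ± 0.29, adjusted p = 0.0778 and 0.104). Of the low-CO2 inducible proteins annotated in the study's sheets, LCIC was at 388 ± 104 and 261 ± 125 TPM. LCI5 was at 234 ± 183 and 276 ± 148 TPM, and the groups overlapped for both. Low-CO2 inducible genes outside those sheets could not be told by name here, so these values do not speak for that class. The 21 transcripts of translation and the ribosome had a median of -0.30, also with none called and 4 (19%) at an unadjusted p under 0.05.

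The 12 transcripts of actin, myosin and kinesin had none called (limma, 4 or 33.3% at an unadjusted p under 0.05, against 17.6% of all). The lowest fold changes were those of an actin regulator of the Ysc84 type, Cre12.g541400 (13.7 ± 6.38 against 36.4 ± 3.37 TPM, log2 fold change -1.43 ± 0.28, adjusted p = 0.018), and a tropomyosin-like protein that coats actin filaments, Cre03.g155100 (2.83 ± 1.05 against 8.35 ± 2.24 TPM, -1.29 ± 0.30, adjusted p = 0.0344). Both passed with the library numbers as a block. The 28 listed transcripts of ciliary proteins, a part of that class, had a median of 0.11 and none called (limma, 4 or 14.3% at an unadjusted p under 0.05). FAP113, a flagellar associated protein, was at 443 ± 79.9 against 226 ± 23.1 TPM (0.96 ± 0.23, adjusted p = 0.0458).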

How the data were processed

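RNA-seq of 45 libraries was deposited as 1 table. The authors aligned reads with BWA, used DESeq2 for their own tests, and deposited TPM per transcript, 1 column per library without pooling; how the TPM were computed is not given in the sources used here. Each library sums to 1000000 TPM, so depth and counting error are unknown, and p-values measure the spread between these libraries. 1 line without values was left out.

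Log2(TPM + 1) of the 7 libraries went into limma 3.58.1 (R 4.3.3), a linear model per transcript followed by eBayes with trend and robust. Benjamini-Hochberg adjustment ran over all 13651 transcripts. The procedure was also run on simulated libraries with independent noise, which does not cover deviations that libraries share. Fold changes of log2(TPM + 1) understate changes of low transcripts. Context comparisons were fitted alike, each on its own groups. Deviations of same-numbered libraries correlated at 0.356 to 0.598 for mannitol 24 h with NaCl 24 h. The range was 0.185 to 0.473 for mannitol 24 h with 60 min and 0.137 to 0.699 for control 24 h with control 0 h. Differently numbered libraries reached 0.264, 0.252 and 0.317, in that order. In the latter comparisons some differently numbered pairs exceeded same-numbered ones, so pairing by number is not shown there. The block fits took the numbers as pairs all the same. Transcripts named were the 12 largest increases and 12 largest decreases among those called with groups apart, and every called transcript annotated by the study. Cre14.g613800, Cre09.g398250, Cre10.g458850, the neighbouring genes and the list members under the threshold were named after their values were seen. Lists came from the study's phosphoprotein and mutant screen sheets and from genes named in its text. Classes by function were sorted by words within those annotations. Members and lists were chosen with earlier results of these data known. Alternatives were other pseudocounts, filters, scalings, thresholds, fits, blocks, controls and omitted libraries. 3 alternatives, the lower-numbered libraries alone, the scaling with the block on library numbers, and the replicate block for the change of the effect, were added after seeing the data. The division by library number is a reading of those numbers, since the labels name no batch. The gene table (assembly v5.5) has no names or products, so no names, coordinates or sequences are given, and cell type markers were not checked. Python 3.11.15, pandas 2.3.3 and matplotlib 3.10.9 were used for tables and plots.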

Additional observations from a re-analysis of the deposited data

Results flagged for a closer look

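In 7 of the 27 named transcripts 1 of the 4 control 24 h libraries lay far from the others by Dixon's gap. Independent, normally distributed values would pass that cutoff about 1 time in 20. These TPM share the same 4 libraries and the transcripts were chosen by their values, so that rate need not hold here. Control replicate 5 was that library for Cre04.g223100 (113 TPM), g9922 (4.64 TPM), Cre02.g097800 (205 TPM), Cre07.g336800 (96.4 TPM) and Cre12.g489300 (19.5 TPM), lowest in the last and highest in the others. For Cre03.g207800 it was replicate 2 (0.254 TPM, lowest), and for g11701 replicate 4 (40.3 TPM, highest).

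The mannitol effect at 24 h differed from that at 60 min, in a direct test of the difference, for 1967 transcripts and for 22 of the 27 named. The difference on the log2 scale was above 0 for Cre03.g162800 (9.27), Cre10.g452250 (7.23), Cre04.g223100 (7), g18082 (6.2), g18268 (5.41), Cre16.g651050 (5.40), Cre02.g097800 (4.94), Cre09.g398450 (4.73), g9922 (4.00), Cre16.g655050 (2.55), Cre03.g207800 (1.68) and Cre02.g101700 (1.54). It was below 0 for Cre12.g546550 (-5.95), Cre07.g336800 (-4.90), Cre12.g546500 (-4.41), Cre16.g661750 (-4.19), Cre12.g546600 (-4.07), Cre16.g661850 (-3.91), Cre01.g053000 (-3.70), Cre04.g227400 (-3.27), g11701 (-2.38) and g9676 (-2.28). The median difference over all transcripts was 0.60, which the values of these transcripts include.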

How the results depend on the processing

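Of the 147 calls of mannitol 24 h against control 24 h, 101 were kept with a pseudocount of 0.1, 99 with no filter, 105 with a mean of 5 TPM or more, 113 with median-ratio scaling, 106 with quantile normalization, 71 with all 9 controls and 56 with control 0 h, although the totals called there lay between 99 and 143. The total became 71 at a log2 fold change beyond 2, 409 at an adjusted p under 0.05, 80 without trend and robust, 388 in a joint fit of all 14 groups, 648 with the block on library numbers, 592 with that block and median-ratio scaling, 808 in the lower-numbered libraries alone and 329 without g15293.t1 and g15294.t1. With each library left out it ranged from 33 to 335. Control 0 h reversed the direction of Cre12.g546550 (2.03), Cre07.g336800 (0.86), Cre12.g546500 (0.46), Cre12.g546600 (0.36) and Cre04.g227400 (0.51), and no other alternative reversed a named transcript. The cause was not tested.

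With the replicate number as a block, which leaves 1 residual degree of freedom, limma called 0 transcripts, 1834 having an unadjusted p under 0.05, and none of the 27 named kept its call. The mannitol and control 24 h groups share only replicates 2 and 3, whose deviations correlated at 0.307 and -0.449, so the numbers are not taken as pairs. With the replicate number as a block, mannitol against NaCl at 24 h gave 1394 calls (838 without) control 24 h against control 0 h 506 (254 without), mannitol 24 h against 60 min 3456 (3090 without), and the change of the effect between them 2773 (1967 without).

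Median-ratio scaling gave 121 calls for control 24 h against control 0 h. With each library left out, calls ranged from 440 to 975 for mannitol against NaCl at 24 h, from 132 to 426 for control 24 h against control 0 h, from 1900 to 2838 for mannitol 24 h against 60 min, from 1098 to 2428 for the change of the effect between them, and from 3611 to 5886 for mannitol 60 min.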
